A study of Rattus norvegicus with 9 samples.

Results

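The genes described here encode ion channels: 64 potassium, calcium, sodium, Trp, chloride and Piezo channel genes of primary rat osteoblasts. They were taken from the deposited table by their symbols (the Kcn, Cacn, Scn, Trp, Clcn, Ano and Piezo families) and by a mean of at least 10 counts over 9 RNA-seq libraries. The table lists 19085 genes, and 147 of them carry such a symbol. The mean of the other 83 channel genes was under 10 counts, so they were left out. By class, the 64 genes comprised 25 for potassium channels, 13 for calcium channels, 10 for Trp channels, 10 for chloride channels and anoctamins, 4 for sodium channels and 2 for Piezo channels. Close to the limit, Kcnab1 (10.4 counts), Cacna2d3 (11), Kcna3 (11.2) and Kcnt2 (12.3) stood just inside, whereas Kcng1 (9.89), Ano7 (9.11), Cacna1h (8.44) and Ano3 (8.11) stood just outside.

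The osteoblasts were first-passage cells from the calvaria of newborn male Sprague-Dawley rats, and all groups were kept for 7 days in osteogenic induction medium with β-glycerophosphate, ascorbic acid and dexamethasone. The control group (3 libraries) received this medium alone, the thrombin group (3 libraries) received thrombin at 20 U/mL in addition, and the PD03 group (3 libraries) received the same thrombin together with PD03 (PD0325901), which inhibits the kinase MEK. Its dose is 0.1 μM in the study's methods, whereas a protocol in the labels gives it in mM, and the labels name the knee as tissue while their own growth protocol names the calvaria. PD03 was not given without thrombin in these libraries. The methods call the 3 libraries of a group independent samples without naming separate animals or cultures, so p-values measure the spread between these samples.

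Ion channels are membrane proteins with a pore that lets selected ions cross. Potassium channels hold the resting membrane potential, voltage-gated calcium channels open when the membrane depolarizes, and Trp and Piezo channels admit cations in response to stretch, heat, osmotic change or intracellular signals. In bone-forming cells the calcium that enters is a second messenger, Piezo1 is known as a sensor of mechanical load, and the exchanger encoded by Clcn7 acts in lysosomes, most prominently in osteoclasts.

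Counts assigned to genes totalled between 15447832 and 19841468 per library, and 13256 genes had enough counts to be tested, including all 64 channel genes. The channel genes together took 0.159% to 0.162% of the counts in the 6 control and thrombin libraries and 0.177% to 0.178% in the 3 PD03 libraries. Libraries of 1 group varied beyond what counting alone gives. Among defining osteoblast markers, Col1a1 (type I collagen) and Runx2 (a master transcription factor) were present in every library, but Bglap (osteocalcin) had 1 to 5 counts per library, Ibsp (bone sialoprotein) 0 to 1 and Dmp1 0 to 4. These 3 late markers of the labelled cell type were therefore near 0 in all 3 groups. The study itself reports osteocalcin by western blot and qRT-PCR in cells treated this way. Of the 12 osteoblast markers 9 were tested. With thrombin 1 rose and 1 fell, and with PD03 against thrombin 4 rose and 2 fell. By the same rule, given below, 8.06% and 15.9% of all tested genes were called in these comparisons. The summed level of the 12 markers came mostly from Col1a1. In control libraries it was 65879 to 72112 CPM (counts scaled by library size and TMM factor to a total of 1e+06). It was 60838 to 64163 CPM in thrombin and 103163 to 106443 CPM in PD03 libraries. It was highest in the PD03 libraries, as was the mean of each channel gene that rose with PD03 against thrombin except Kcnt2. Kcnt2 was highest in control libraries (mean 1.14 CPM, and 0.737 CPM in PD03 libraries). The part of these markers in the channel results was not tested. Because these are bulk samples, fewer cells that express a gene and less RNA per cell cannot be told apart in any value below.

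Levels of different genes were compared per gene length, as FPKM (fragments per kilobase of gene, scaled by library total), averaged over the 9 libraries. Piezo1, a large mechanically gated cation channel, had the highest level at 61.0 FPKM. Its group means were 59.4 ± 0.659 FPKM in control, 61.2 ± 0.348 in thrombin and 62.3 ± 0.999 in PD03 libraries (SD, n = 3 each). Next came Cacnb3, a cytoplasmic β subunit of voltage-gated calcium channels, at 28.4 FPKM and Ano6, a calcium-activated channel and lipid scramblase, at 24.6 FPKM. In descending order, Ano10 (18.0), Kcne4 (16.2), Ano8 (14.4), Kcnk6 (12.0), Trpm7 (11.5), Trpm4 (10.2) and Clcn7 (10.1) made up the rest of the 10 genes at or above 10 FPKM. Subunits that form the pore of voltage-gated calcium channels were lower, with 5.81 FPKM for Cacna1g (T-type) and 5.15 FPKM for Cacna1c (L-type). The sodium channel pore gene Scn2a was at 0.942 FPKM. The lowest level was that of Kcna3, at 0.0663 FPKM. In all, 35 of the 64 genes reached 1 FPKM. Their median was 1.29 FPKM, against 7.25 FPKM over all tested genes.

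**Figure D1:**
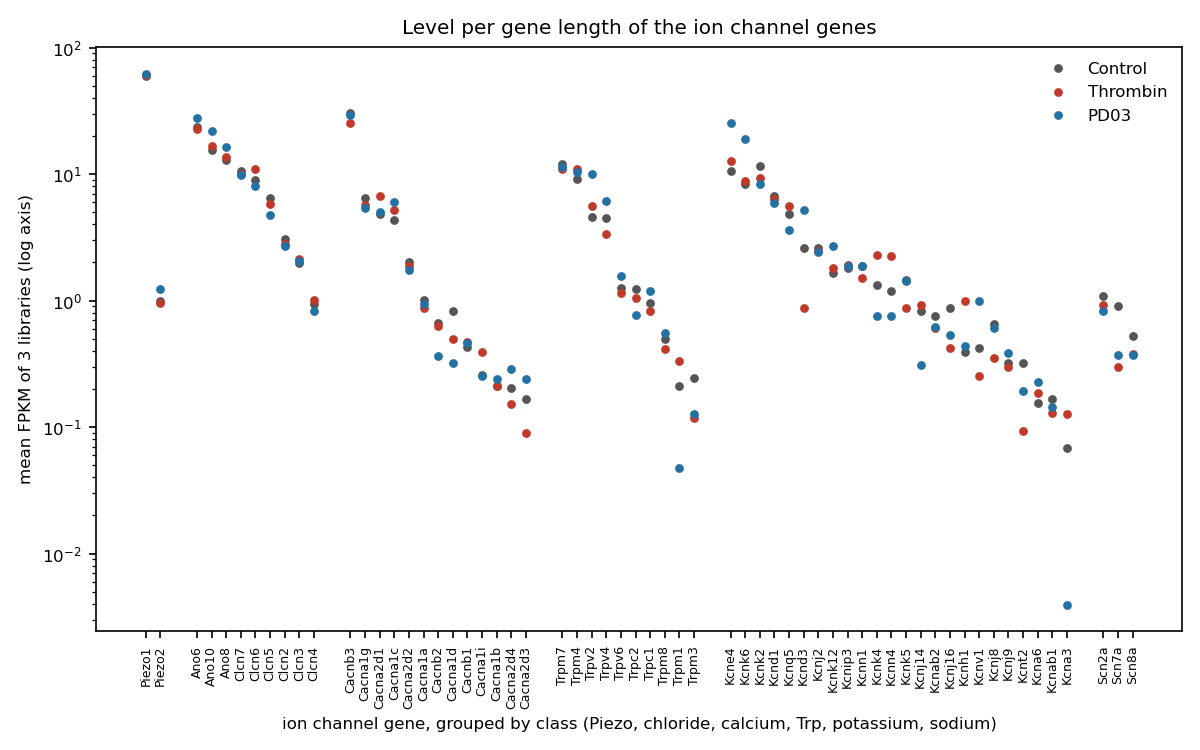
Level per gene length of 61 of the ion channel genes, as the mean FPKM of 3 libraries in each group (log axis), with 1 column of points per gene, grouped by class and ordered by level within it. Piezo1 stands highest at 61.0 FPKM over all libraries and Kcna3 lowest at 0.0663, and most columns hold 3 points that lie close together.

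The first comparison asked how thrombin changed the channel genes of cells in induction medium. Of the 64 genes, 3 rose (Kcnh1, Kcnn4 and Kcnk4) and 7 fell (Kcnt2, Scn7a, Kcnd3, Kcnj16, Trpm3, Kcnk5 and Cacna1d). A gene was called when its adjusted p-value (edgeR's quasi-likelihood test, Benjamini-Hochberg over all tested genes) was under 0.05 with a log2 fold change beyond 0.58 in either direction. By this rule 15.6% of the channel genes were called, beside 8.06% of all tested genes, of which 2.62% were higher and 5.44% lower. All 3 increases and 4 of the 7 decreases were among the 25 potassium channel genes, whereas none of the 10 chloride channel genes and neither Piezo gene was called. Over the 64 genes the median log2 fold change was -0.07, and over all tested genes it was -0.006.

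Of all channel genes, Kcnd3 and Kcnk4 were the ones called in each of the 3 comparisons, in opposite directions, and the stretch of 250 bases before the start of each gene is printed for that reason (RefSeq promoter table, build GRCr8). The Kcnd3 stretch lies at chr2:195626066-195626315 on the + strand and is 79.6% G and C, and the Kcnk4 stretch lies at chr1:213555862-213556111 on the - strand and is 58.4% G and C. Both read 5′ to 3′ on the strand of the gene.
Kcnd3: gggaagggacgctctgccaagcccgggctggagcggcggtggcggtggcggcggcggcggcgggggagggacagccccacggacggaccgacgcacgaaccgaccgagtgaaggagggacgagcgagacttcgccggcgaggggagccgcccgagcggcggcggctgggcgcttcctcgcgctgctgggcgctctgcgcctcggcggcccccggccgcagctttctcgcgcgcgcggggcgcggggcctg
Kcnk4: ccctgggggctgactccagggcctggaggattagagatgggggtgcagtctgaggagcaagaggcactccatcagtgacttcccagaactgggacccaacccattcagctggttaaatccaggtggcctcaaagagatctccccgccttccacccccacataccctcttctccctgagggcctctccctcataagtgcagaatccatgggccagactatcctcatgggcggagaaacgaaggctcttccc
Neither stretch holds the letters TGANTCA (a core of AP-1 sites) or CGGAAG (a core of ETS sites) on either strand, searched because factors of these families act downstream of MEK. A window from 250 bases before to 50 bases after the start was found for 49 of the 64 genes (60 windows, since a gene can have several starts). Among the other 15 were Cacna1g, Cacna1i, Cacna2d4, Cacnb1, Kcnd1, Kcnk6, Kcnk12, Kcnn1, Kcnn4, Kcnv1, Piezo1 and Trpc1. TGANTCA occurred in 1 of these 60 windows (1.67%), against 7.33% of 33469 windows of all genes. CGGAAG occurred in 7 of 60 (11.7%), against 16.6% of all windows, and the 6 genes with it were Ano10, Cacna1a, Cacnb3, Clcn6, Kcnd3 (after the start) and Kcnt2. Stretches of 60 bases around the matches of called genes that lie before the start are shown next, with the match in capitals.
Kcnj16 (TGANTCA, chr10:96517092-96517151, + strand): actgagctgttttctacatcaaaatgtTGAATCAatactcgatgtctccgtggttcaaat
Kcnt2 (CGGAAG on the opposite strand, chr13:54215240-54215299, + strand): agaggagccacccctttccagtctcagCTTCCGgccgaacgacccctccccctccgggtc
Ano10 (CGGAAG, chr8:130835622-130835681, - strand): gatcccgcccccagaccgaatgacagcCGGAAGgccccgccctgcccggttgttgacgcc
A match is a description of the letters only.

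Kcnd3 encodes the pore of a transient, A-type voltage-gated potassium channel. Its level was 18.6, 14.5 and 18.4 CPM in the control libraries, 5.77, 6.20 and 5.71 CPM in the thrombin libraries and 35.4, 35.9 and 41.0 CPM in the PD03 libraries. The 3 groups did not overlap, and thrombin libraries were the lowest and PD03 libraries the highest. Thrombin lowered it with a log2 fold change of -1.54 ± 0.11 (SE, adjusted p = 9.5e-15).

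Kcnk4, which encodes a mechanosensitive 2-pore-domain potassium channel, had the opposite order. Its level was 5.44, 3.66 and 5.31 CPM in control, 9.64, 7.95 and 7.87 CPM in thrombin and 3.28, 2.72 and 2.94 CPM in PD03 libraries. Again no group overlapped another. Thrombin raised it by 0.81 ± 0.16 on the log2 scale (adjusted p = 9.9e-05).

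Another pair of potassium channel genes rose with thrombin. Kcnn4, the intermediate-conductance calcium-activated potassium channel, was at 2.18, 2.27 and 2.72 CPM in control, 4.40, 4.28 and 4.90 CPM in thrombin and 1.54, 2.2 and 1.16 CPM in PD03 libraries. All thrombin libraries were above all others, with a log2 fold change of 0.92 ± 0.22 over control (adjusted p = 9.1e-04). Kcnh1, a voltage-gated channel of the ether-à-go-go family, was at 1.20, 2.40 and 1.71 CPM in control, 5.00, 4.61 and 3.96 CPM in thrombin and 1.80, 1.88 and 2.69 CPM in PD03 libraries. Here too the thrombin libraries stood apart, while control and PD03 libraries overlapped. The change with thrombin was 1.37 ± 0.24 on the log2 scale (adjusted p = 1.3e-05).

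Of the potassium channel genes that fell, Kcnj16, an inward rectifier, was at 10.0, 9.47 and 7.83 CPM in control, 4.40, 4.28 and 4.55 CPM in thrombin and 6.89, 4.53 and 6.61 CPM in PD03 libraries. Every control library was above every library of the other groups, and the log2 fold change with thrombin was -1.05 ± 0.16 (adjusted p = 8.5e-07). Kcnk5, a 2-pore channel sensitive to external pH, was at 5.82, 3.85 and 4.99 CPM in control, 3.75, 2.41 and 2.74 CPM in thrombin and 5.72, 5.50 and 4.47 CPM in PD03 libraries. Its change with thrombin (-0.73 ± 0.20, adjusted p = 0.0042) was no longer called without control library 1 (-0.58, adjusted p = 0.0516). Kcnt2, a sodium-activated potassium channel, was close to the limit of detection, with 22, 19 and 16 counts in control, 6, 4 and 7 counts in thrombin and 13, 15 and 9 counts in PD03 libraries. Control and thrombin libraries did not overlap, and the change was -1.78 ± 0.45 on the log2 scale (adjusted p = 0.0018). Kcnt2 reached the limit of 10 mean counts only through its control libraries, so this call is not independent of how it was chosen.

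Among the genes of other classes, Scn7a fell most. This atypical member of the sodium channel family is known as a sensor of sodium concentration. Its level was 6.25, 5.37 and 6.88 CPM in control, 1.96, 2.30 and 1.87 CPM in thrombin and 2.97, 2.78 and 2.39 CPM in PD03 libraries. The thrombin libraries were lowest and none of the 3 groups overlapped, with a log2 fold change of -1.59 ± 0.20 for thrombin (adjusted p = 1.8e-08). The L-type calcium channel pore gene Cacna1d was at 5.87, 6.44 and 8.15 CPM in control, 4.70, 3.95 and 3.91 CPM in thrombin and 2.75, 2.46 and 3.43 CPM in PD03 libraries, a descending order without overlap. Its change with thrombin was -0.70 ± 0.17 (adjusted p = 0.0016), and -0.55 without control library 3, under the fold threshold. Trpm3, a heat-activated cation channel, was at 2.12, 3.66 and 1.96 CPM in control, 1.07, 0.932 and 1.75 CPM in thrombin and 1.75, 1.17 and 1.47 CPM in PD03 libraries. Control library 2 was the highest of the 9, and the call (-1.04 ± 0.31, adjusted p = 0.0081) was lost without it (adjusted p = 0.139) and without thrombin library 2 (adjusted p = 0.0582).

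**Figure D2:**
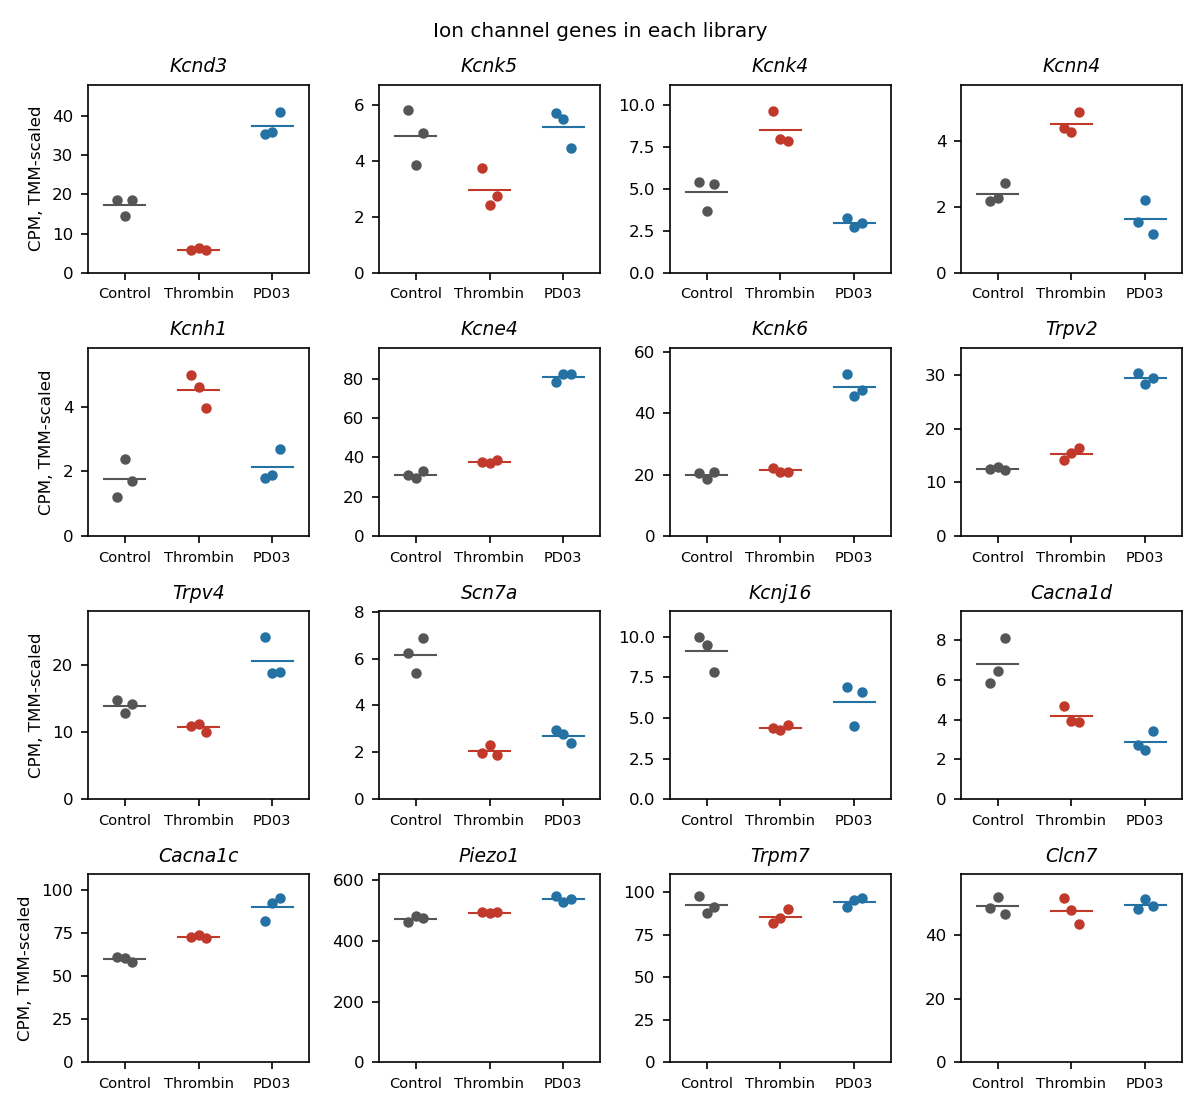
Level of 16 ion channel genes in each of the 9 libraries (CPM, TMM-scaled, axes from 0), where each point is 1 library and each line the mean of the 3 libraries of a group. Thrombin libraries stand lowest for Kcnd3 and highest for Kcnk4, Kcnn4 and Kcnh1, PD03 libraries stand highest for Kcne4, Kcnk6 and Trpv2, and the points of Clcn7 overlap across all groups.

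The second comparison asked what the MEK inhibitor changed in cells that also received thrombin. Relative to thrombin alone, 14 channel genes rose and 7 fell. Potassium channel genes made up 8 of the increases (among them Kcnd3, Kcnv1, Kcnk6, Kcnt2, Kcne4, Kcnk5 and Kcnk12) and 5 of the decreases (Kcna3, Kcnk4, Kcnn4, Kcnj14 and Kcnh1). The Trp genes Trpv2, Trpv4 and Trpc1 rose and Trpm1 fell, the auxiliary calcium channel subunit genes Cacna2d3 and Cacna2d4 rose and Cacnb2 fell, and 1 of 10 chloride channel genes rose. Called genes made up 32.8% of the channel genes, beside 15.9% of all tested genes (9.61% higher and 6.31% lower). None of the 4 sodium channel genes and neither Piezo gene was called. The median log2 fold change was 0.23 over the channel genes and 0.01 over all tested genes. When libraries were scaled by their totals in place of TMM, 11 channel genes were called higher and 10 lower, so that 52.4% of the calls were higher and not 66.7%, and the median of all genes moved to -0.09. Among the potassium channel genes the calls were then 6 higher and 6 lower. This comparison shares the 3 thrombin libraries with the first, and the values of both are given side by side where a gene was called in both.

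In the PD03 libraries Kcnd3 was 6.34-fold as high as in the thrombin libraries (log2 fold change 2.66 ± 0.10, adjusted p = 2.6e-24), after -1.54 for thrombin against control. Kcnk4 fell by 1.50 on the log2 scale (SE 0.17, adjusted p = 1.0e-09), where thrombin had raised it by 0.81. For Kcnn4 the value was -1.47 ± 0.23 (adjusted p = 8.0e-07), beside 0.92 for thrombin against control. These 3 genes thus differed between PD03 and thrombin libraries by more than the spread of the replicates. Kcnh1 changed by -1.09 ± 0.23 (adjusted p = 1.1e-04), beside 1.37 for thrombin. For Kcnk5 the value was 0.82 ± 0.20 (adjusted p = 5.4e-04), beside -0.73. Kcnt2 was at the edge of the threshold, at 1.15 ± 0.48 (adjusted p = 0.045), and its call was lost without any 1 of 8 libraries (adjusted p 0.0512 to 0.187), with PD03 library 3 the exception, and with library totals (adjusted p = 0.0642).

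A group of genes differed from thrombin alone while showing no call for thrombin against control. Some of them did change with thrombin, under the fold threshold. On the log2 scale Kcne4 changed by 0.28 (adjusted p = 7.2e-04), Trpv2 by 0.29 (adjusted p = 0.017) and Trpv4 by -0.38 (adjusted p = 0.0078). Kcne4, an auxiliary subunit that modulates voltage-gated potassium channels, was at 30.8, 29.5 and 33.0 CPM in control, 37.6, 37.0 and 38.7 CPM in thrombin and 78.1, 82.4 and 82.4 CPM in PD03 libraries. The PD03 libraries were far above the rest, at 2.14 times the thrombin level (log2 fold change 1.10 ± 0.06, adjusted p = 8.9e-20). The 2-pore potassium channel gene Kcnk6 was at 20.6, 18.6 and 20.8 CPM in control, 22.1, 20.9 and 20.9 CPM in thrombin and 52.8, 45.6 and 47.4 CPM in PD03 libraries. Its change with PD03 was 1.19 ± 0.07 (adjusted p = 1.4e-17), with no overlap between PD03 and the other groups. Kcnk12, another 2-pore gene, was at 5.28, 6.50 and 4.99 CPM, at 6.13, 6.58 and 5.77 CPM and at 9.43, 10.1 and 9.86 CPM in the control, thrombin and PD03 libraries. PD03 libraries were again the highest, and the change was 0.67 ± 0.14 (adjusted p = 6.9e-05), or 0.57 with library totals, under the threshold.

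The modifier subunit Kcnv1, electrically silent when expressed alone, was at 1.79, 1.64 and 1.39 CPM in control, 0.833, 0.768 and 1.34 CPM in thrombin and 4.13, 3.43 and 4.84 CPM in PD03 libraries. PD03 libraries did not overlap with the others (2.07 ± 0.27 over thrombin, adjusted p = 1.4e-08).

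In the opposite direction, Kcna3, a voltage-gated potassium channel best known from lymphocytes, had 10, 13 and 10 counts in control, 20, 26 and 20 counts in thrombin and 0, 1 and 1 counts in PD03 libraries. The 66 counts of the thrombin libraries against 2 of the PD03 libraries gave a ratio, corrected for library size, of 32.0 (95% interval 8.52 to 270, for counting error only), and the difference was called (adjusted p = 8.7e-08). Kcna3 reached the limit of 10 mean counts only through its thrombin libraries, so this call is not independent of how it was chosen. The leukocyte marker Ptprc was near 0 in all groups, with 0 to 6 counts per library. The inward rectifier gene Kcnj14 was at 1.85, 1.77 and 3.03 CPM in control, 2.68, 2.96 and 1.81 CPM in thrombin and 0.795, 1.04 and 0.857 CPM in PD03 libraries. PD03 libraries were the lowest for this gene, with a change of -1.47 ± 0.31 (adjusted p = 1.2e-04).

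Trp channel genes were called 4 times with PD03. Trpv2 was at 12.4, 12.9 and 12.3 CPM in control, 14.1, 15.4 and 16.4 CPM in thrombin and 30.3, 28.4 and 29.5 CPM in PD03 libraries, a change of 0.94 ± 0.09 over thrombin (adjusted p = 1.6e-12). Trpv4, an osmotically and mechanically sensitive calcium-permeable channel, was at 14.7, 12.8 and 14.1 CPM in control, 10.9, 11.1 and 9.97 CPM in thrombin and 24.2, 18.7 and 18.9 CPM in PD03 libraries. Both genes were highest in the PD03 libraries, with no overlap between PD03 and the other groups. For Trpv4 the change over thrombin was 0.95 ± 0.11 (adjusted p = 4.0e-10). Trpc1, a subunit of receptor-operated cation channels, was at 4.41, 3.47 and 5.12 CPM in control, 3.99, 3.89 and 3.32 CPM in thrombin and 4.61, 7.19 and 5.69 CPM in PD03 libraries. PD03 library 2 was the highest, and the call (0.63 ± 0.19, adjusted p = 0.0043) was lost without it (0.45, adjusted p = 0.0691), without thrombin library 3 (0.55) and with library totals (0.53). Trpm1, known from retinal bipolar cells, had 18, 16 and 19 counts in control, 25, 39 and 25 counts in thrombin and 10, 2 and 2 counts in PD03 libraries. PD03 library 1 was above the other PD03 libraries but under all 6 remaining libraries. The change for Trpm1 was -2.60 ± 0.44 (adjusted p = 3.9e-06) and -3.68 without that library.

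Of the calcium channel genes, those called in this comparison encode auxiliary subunits, which set the trafficking and gating of the pore. Cacnb2, a β subunit, was at 3.59, 4.74 and 3.54 CPM in control, 2.91, 3.78 and 4.60 CPM in thrombin and 2.07, 2.59 and 2.45 CPM in PD03 libraries. PD03 libraries were the lowest, and the call (-0.68 ± 0.22, adjusted p = 0.0093) was lost without thrombin library 3 (adjusted p = 0.0917). The α2δ subunit gene Cacna2d4 was at 0.761, 0.695 and 1.14 CPM in control, 0.833, 0.713 and 0.408 CPM in thrombin and 1.75, 1.17 and 1.04 CPM in PD03 libraries. Its call (1.03 ± 0.38, adjusted p = 0.024) was lost without thrombin library 3 (adjusted p = 0.13) and without PD03 library 1 (adjusted p = 0.175). The related Cacna2d3, singled out after its values were seen, had 10, 14 and 7 counts in control, 4, 10 and 4 counts in thrombin and 20, 12 and 18 counts in PD03 libraries (1.50 ± 0.47 over thrombin, adjusted p = 0.0071). It reached the limit of 10 mean counts only through its PD03 libraries, so this call is not independent of how it was chosen.

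**Figure D3:**
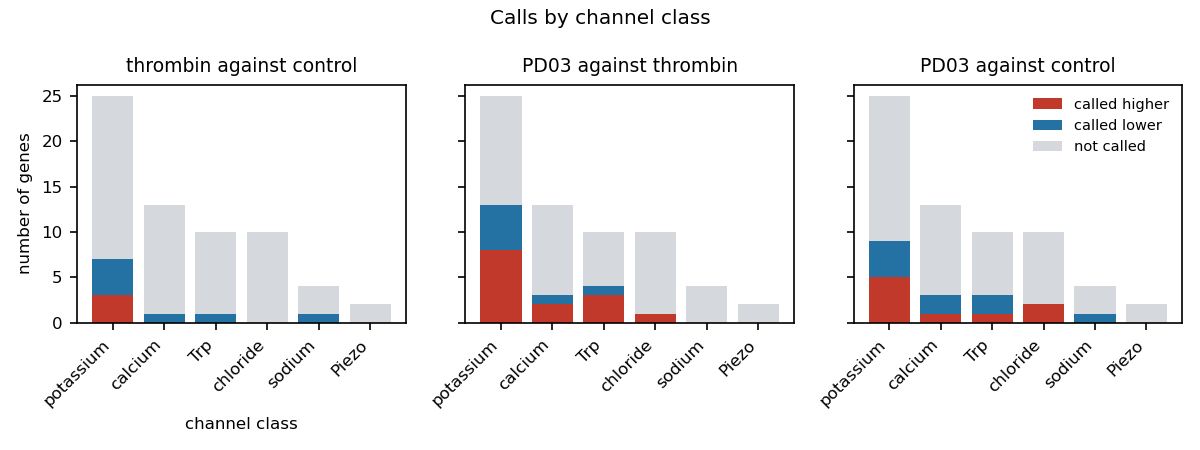
Number of ion channel genes called higher (red), called lower (blue) and not called (grey) in each class, with 1 panel per comparison and bars from 0 to the number of genes in the class. Potassium channel genes hold 7, 13 and 9 of the 10, 21 and 18 calls of the 3 comparisons, and Piezo genes hold none.

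The third comparison set the cells given thrombin with PD03 against cells in induction medium alone. In it 9 channel genes were higher and 9 lower (28.1% called, beside 8.97% of all tested genes, 4.9% higher and 4.07% lower), with a median log2 fold change of 0.09 over the channel genes and -0.004 over all genes. With library totals as scaling, 6 were higher and 11 lower, so that 35.3% of the calls were higher and not 50.0%, and the median of all genes moved to -0.12. The genes above control included Kcne4, Kcnv1, Kcnk6, Trpv2, Kcnd3, Kcnk12, Ano10 and Cacna1c, and those below control were Kcna3, Trpm1, Kcnj14, Cacna1d, Scn7a, Trpm3, Cacnb2, Kcnk4 and Kcnj16. This comparison shares the PD03 libraries with the second and the control libraries with the first.

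Above control, Kcne4 rose by 1.38 ± 0.06 on the log2 scale (adjusted p = 2.7e-22), Kcnk6 by 1.28 ± 0.07 (adjusted p = 3.4e-18) and Trpv2 by 1.23 ± 0.09 (adjusted p = 2.8e-15). For Kcnv1 the change was 1.35 ± 0.25 (adjusted p = 1.9e-05), and for Kcnd3 it was 1.12 ± 0.09 (adjusted p = 7.6e-14), so that PD03 libraries exceeded control libraries for a gene that was below control with thrombin alone. Kcnk12 changed by 0.81 ± 0.14 (adjusted p = 6.6e-06). Ano10, an anoctamin at a high level, was at 58.2, 57.5 and 58.2 CPM in control, 64.3, 62.5 and 63.5 CPM in thrombin and 92.5, 91.5 and 82.1 CPM in PD03 libraries. The groups did not overlap, and the change was 0.61 ± 0.05 over control (adjusted p = 1.2e-12), or 0.50 with library totals, under the threshold. The L-type pore gene Cacna1c was at 61.0, 60.8 and 58.3 CPM in control, 73.0, 73.9 and 72.5 CPM in thrombin and 82.3, 92.8 and 95.3 CPM in PD03 libraries, an ascending order without overlap. Its change of 0.58 ± 0.05 (adjusted p = 7.8e-12) lay just past the fold threshold, and without control library 3, thrombin libraries 1 or 2 or PD03 libraries 2 or 3 it lay just under it (0.54 to 0.58), as it did with library totals (0.47).

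Below control, the other L-type pore gene Cacna1d fell by 1.24 on the log2 scale (SE 0.19, adjusted p = 5.1e-07), where Cacna1c was higher. Scn7a changed by -1.18 ± 0.19 (adjusted p = 2.3e-06) and Kcnj14 by -1.30 ± 0.32 (adjusted p = 9.8e-04). Scn7a therefore stayed below control with PD03 present, and its difference from thrombin alone was 0.41 ± 0.22 (adjusted p = 0.13). For Kcna3 the 33 control counts against 2 in PD03 libraries gave a ratio, corrected for library size, of 16.7 (95% interval 4.27 to 144, for counting error only, adjusted p = 6.9e-05). Trpm1 changed by -1.92 ± 0.48 (adjusted p = 0.0012), and by -3.0 without PD03 library 1. Kcnk4 was at -0.69 ± 0.19 (adjusted p = 0.0028). The other 3 calls depended on which libraries were kept. Kcnj16 (-0.59 ± 0.15, adjusted p = 0.0014) moved under the fold threshold without control libraries 1 or 2 or PD03 library 2 (-0.44 to -0.57), and Cacnb2 (-0.74 ± 0.22, adjusted p = 0.0057) was lost without control library 2 (adjusted p = 0.0552). Trpm3 (-0.80 ± 0.30, adjusted p = 0.03) was lost without control library 2 or PD03 libraries 2 or 3 (adjusted p 0.0652 to 0.291).

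Some genes close to the threshold were not called, but were under an alternative. Kcnn4 against control was at -0.55 ± 0.25 (adjusted p = 0.082), and was called without PD03 library 2 (-0.81, adjusted p = 0.0248) and with library totals (-0.67, adjusted p = 0.029). Trpv4 against control was at 0.57 ± 0.10 (adjusted p = 1.4e-05), and at 0.62 to 0.63 without control library 1 or PD03 libraries 2 or 3. Kcnv1 for thrombin against control was at -0.72 ± 0.31 (adjusted p = 0.077), and at -1.01 (adjusted p = 0.0336) without thrombin library 3. Cacna1d for PD03 against thrombin was at -0.53 ± 0.20 (adjusted p = 0.021), and at -0.58 to -0.67 without thrombin libraries 2 or 3 or PD03 library 3. For the same comparison, Kcnj16 (0.46 ± 0.17, adjusted p = 0.02) was called without PD03 library 2 (0.60). Against control, Piezo2 (0.44) was called without control library 3 (0.58). These genes are counted as not called in those comparisons.

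**Figure D4:**
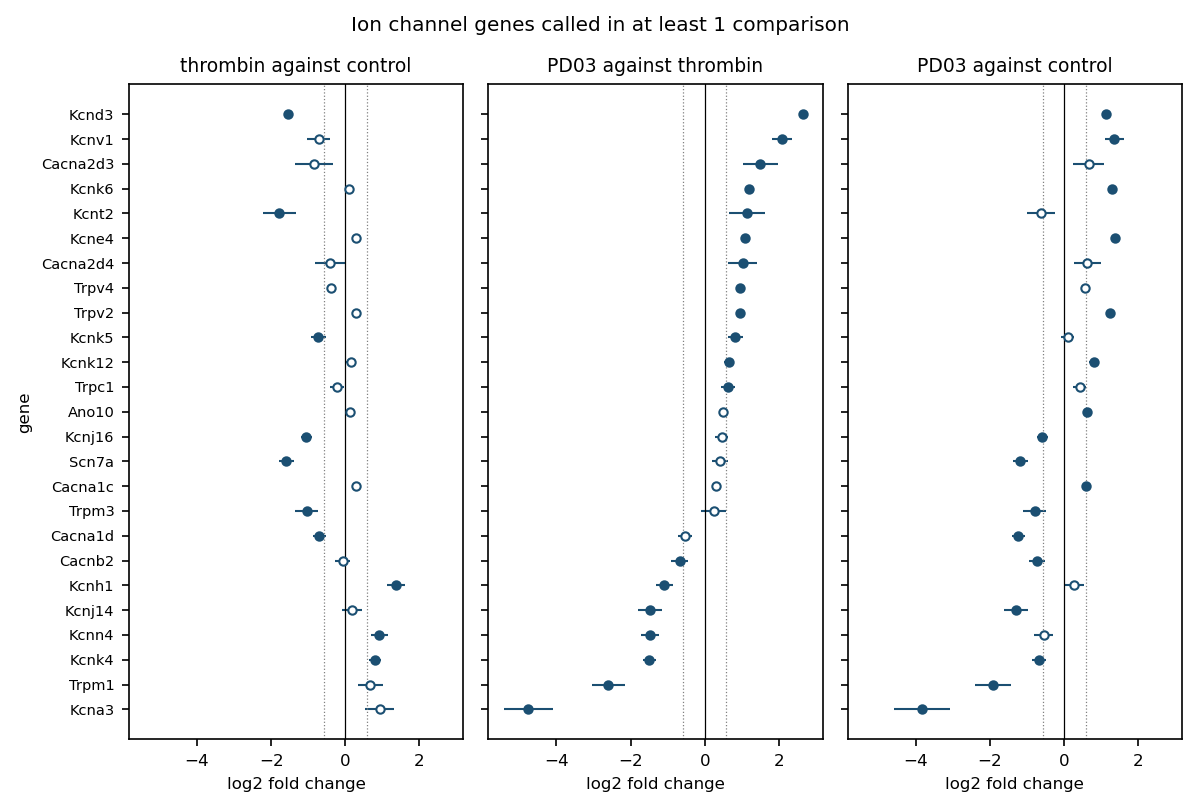
Log2 fold change (x axis) of 25 ion channel genes called in at least 1 comparison (y axis), with 1 panel per comparison, bars for ± 1 SE, filled circles for called and open circles for not called genes, and dotted lines at the fold threshold of 0.58 on both sides of 0. Kcnd3 lies at -1.54, 2.66 and 1.12 in the 3 panels and Kcnk4 at 0.81, -1.50 and -0.69, while Kcna3 has the lowest values and the widest bars in both panels with PD03.

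Over the 3 comparisons 27 of the 64 genes (42.2%) were called at least once, beside 20.2% of all tested genes. The 37 genes without a call included most of those with a high level. Of the 10 genes at or above 10 FPKM, 3 were called in any comparison (Kcne4, Kcnk6 and Ano10). The called genes had a median of 61.6 counts per library and 0.610 FPKM, against 166 counts and 1.88 FPKM for those not called. For 9 genes the lowest count in a library was under 10. Because the limit on mean counts pooled all groups, Kcna3 reached it only through its thrombin libraries (20, 26 and 20 counts). Cacna2d3 did so through its PD03 libraries and Kcnt2 through its control libraries. Their calls enter these shares and are not independent of the rule that chose the genes.

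Piezo1 was at 464, 482 and 475 CPM in control, 495, 490.4 and 494 CPM in thrombin and 546, 528 and 538 CPM in PD03 libraries. The PD03 libraries were the highest without overlap, but the change was small, with 0.12 ± 0.03 over thrombin (adjusted p = 0.0018) and 0.18 ± 0.03 over control (adjusted p = 1.7e-05). Piezo2 was at 7.29, 7.64 and 9.98 CPM, at 7.49, 9.16 and 7.52 CPM and at 11.7, 10.9 and 11.1 CPM in control, thrombin and PD03 libraries, with 0.48 ± 0.13 over thrombin (adjusted p = 0.0019) and no call. The mechanosensitive 2-pore channel gene Kcnk2 was at 36.5, 37.1 and 39.4 CPM in control, 28.4, 32.7 and 31.4 CPM in thrombin and 26.7, 29.8 and 32.4 CPM in PD03 libraries. Control libraries were the highest, and the difference for thrombin was -0.29 ± 0.07 (adjusted p = 0.0024), under the fold threshold.

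Among the calcium channel genes without a call, Cacnb3 was at 86.0, 88.6 and 87.4 CPM in control, 72.6, 72.7 and 75.8 CPM in thrombin and 96.4, 88.0 and 92.0 CPM in PD03 libraries. Thrombin libraries were lowest without overlap, by -0.24 ± 0.05 against control (adjusted p = 1.6e-04). The α2δ subunit gene Cacna2d1 was at 18.8, 17.5 and 17.2 CPM in control, 24.0, 25.7 and 25.8 CPM in thrombin and 18.6, 20.0 and 21.2 CPM in PD03 libraries. Here thrombin libraries were highest, by 0.49 ± 0.08 against control (adjusted p = 8.8e-06). Cacna1g, which forms T-type channels, was at 48.1, 56.2 and 54.1 CPM in control, 49.5, 44.4 and 47.0 CPM in thrombin and 49.7, 45.4 and 48.7 CPM in PD03 libraries, and control and thrombin libraries overlapped.

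In the Trp class, Trpm7, a channel fused to a kinase, was at 97.6, 88.1 and 91.3 CPM in control, 82.1, 84.8 and 90.5 CPM in thrombin and 91.3, 95.3 and 96.5 CPM in PD03 libraries. Its control libraries overlapped with both other groups. Trpm4, a calcium-activated channel for monovalent cations, was at 46.4, 44.9 and 46.9 CPM in control, 57.4, 54.7 and 55.9 CPM in thrombin and 58.5, 56.4 and 56.0 CPM in PD03 libraries. All 6 libraries with thrombin were above control, by 0.28 ± 0.06 for thrombin alone (adjusted p = 1.3e-04), under the fold threshold.

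In the chloride channel class 8 of 10 genes had no call. Clcn7, whose product is a lysosomal chloride and proton exchanger, was at 48.2, 51.9 and 46.6 CPM in control, 51.4, 47.8 and 43.2 CPM in thrombin and 48.0, 51.2 and 48.8 CPM in PD03 libraries, overlapping throughout. For Clcn3, an endosomal exchanger, the means were 10.8 ± 0.76, 11.8 ± 0.81 and 12.2 ± 1.1 CPM (SD, n = 3 each) in the same order of groups. Ano6 was at 149.7, 166 and 156 CPM in control, 156, 154 and 157 CPM in thrombin and 192, 201 and 209 CPM in PD03 libraries. PD03 libraries were the highest for Ano6, by 0.37 ± 0.04 over thrombin (adjusted p = 1.3e-09), and for Ano8, also an anoctamin, by 0.37 ± 0.06 (adjusted p = 3.6e-07). All 3 anoctamin genes among the members were thus between 0.37 and 0.48 (log2) higher than with thrombin alone, under the fold threshold. In the sodium class Scn2a had means of 9.16 ± 0.45, 7.86 ± 0.44 and 7.50 ± 1.3 CPM (SD, n = 3 each), and none of its differences was called.

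Counted without the fold threshold, 20 of the 64 genes had an adjusted p-value under 0.05 for thrombin against control (28.7% of all tested genes did), 36 for PD03 against thrombin (49.8%) and 29 for PD03 against control (39.9%). Libraries of the compared groups did not overlap for 31, 39 and 29 of the 64 genes in these comparisons, beside 40.3%, 55.5% and 47.8% of all tested genes.

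Genes that work beside these channels were counted from 4 lists. Of all tested genes 8.06% were called for thrombin against control, 15.9% for PD03 against thrombin and 8.97% for PD03 against control. The lists are short, and some of their counts lie near these shares. Of 33 tested genes for other ion channels and calcium stores (ryanodine and inositol trisphosphate receptors, store-operated, purinergic and polycystin channels among them), thrombin raised 3 and lowered 1, PD03 against thrombin gave 6 higher and 4 lower, and PD03 against control gave 2 higher. The gene lowered by thrombin was the ryanodine receptor gene Ryr3, whose call was lost without control library 3 (adjusted p = 0.17) or thrombin library 1 (adjusted p = 0.0928). Ryr3 was also 1 of the 2 higher against control, a call lost with DESeq2 (adjusted p = 0.0601) and without control libraries 1 or 2 or PD03 libraries 2 or 3 (adjusted p 0.0616 to 0.175). Pkd2, the polycystin cation channel gene, singled out after its values were seen, was at 94.5, 87.6 and 89.5 CPM in control, 188, 199 and 187 CPM in thrombin and 107, 114 and 117 CPM in PD03 libraries, a log2 fold change of 1.08 ± 0.05 for thrombin (adjusted p = 8.5e-23) and -0.77 ± 0.04 for PD03 against thrombin (adjusted p = 2.4e-18). Its thrombin libraries stood above all others. Of 12 calcium pumps and exchangers none was called with thrombin, 2 rose with PD03 against thrombin and 1 rose against control. The last was the sodium and calcium exchanger gene Slc8a1 (0.63), which lay under the fold threshold with library totals (0.51) and without control library 1 or PD03 libraries 2 or 3 (0.57). Of 12 sodium, potassium and chloride transporters 2 were higher and 1 lower with thrombin, and 2 were higher with PD03 against thrombin and 1 against control. The last was Atp1b1, a sodium pump subunit gene (0.60), which lay under the threshold with library totals (0.48) and without control library 3 (0.53) or PD03 library 2 (0.57). Of 12 channel regulators 2 rose and 1 fell with thrombin, 1 was higher and 1 lower with PD03 against thrombin, and none was called against control. The 2 that rose were Rrad (0.73 ± 0.12, adjusted p = 8.1e-06) and Gem (0.83 ± 0.17, adjusted p = 9.7e-05), small GTPases that inhibit voltage-gated calcium channels, named after their values were seen. The median log2 fold changes of the 4 lists lay between -0.04 and 0.03 for thrombin against control and between 0.07 and 0.10 for PD03 against thrombin. Over all tested genes the medians were -0.006 and 0.01.

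Markers of other cell types were measured in the same libraries, since some of the channels are better known from muscle, nerve or blood cells. The summed level of 8 smooth muscle and pericyte markers was 677 to 777 CPM in control, 663 to 702 CPM in thrombin and 1665 to 1705 CPM in PD03 libraries. This sum was highest in the PD03 libraries, as were Kcne4 and Kcnk6. Kcnd3 was highest there too, and lowest in the thrombin libraries. The sum overlapped between control and thrombin libraries, and with thrombin 2 markers of the list were called higher and 1 lower. Of the 7 tested markers of this list 3 rose against thrombin (Acta2, Cnn1 and Myh11), 4 were not called and none fell. The part of this list in the channel results was not tested. Summed neuron and glia markers were 2.65 to 3.05, 2.85 to 4.94 and 3.39 to 4.14 CPM in control, thrombin and PD03 libraries, with Snap25 at 0 to 2 and Rbfox3 at 0 to 3 counts per library. Skeletal muscle markers summed to 14.5 to 17.1, 13.4 to 15.5 and 17.2 to 18.3 CPM, and endothelial markers to 7.89 to 8.90, 7.35 to 9.75 and 12.0 to 14.1 CPM, in the same order. Myeloid and osteoclast markers summed to 133 to 144, 100.5 to 109 and 171 to 180.0 CPM, most of it from Ctsk, which also occurs outside osteoclasts. With PD03 against thrombin, 2 of 5 tested skeletal muscle markers, 2 of 3 endothelial markers and 1 of 3 myeloid and osteoclast markers rose, and 1 of 2 neuron and glia markers fell. Of all tested genes 9.61% rose and 6.31% fell in this comparison. The part of these lists in the results was not tested.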

How the data were processed

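Messenger RNA of 9 libraries was sequenced. Per its methods, the study used fastp for trimming, HISAT2 with Rnor_6.0 for alignment and featureCounts for counting, whereas the submitters' processing notes name HISAT2, HTSeq 0.13.5 and mRatBN7.2. The annotation release and whether libraries were stranded were not given in the sources used here, so reads of overlapping genes on opposite strands may not be separated. The authors deposited raw counts and FPKM values, which equal counts divided by gene length and library total, for 19085 genes. Counts served all tests, and FPKM only levels between genes and alternatives.

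Counts were filtered with filterByExpr (minimum count 10), scaled by TMM and fitted for all 9 libraries with edgeR 4.0.16 (quasi-likelihood, R 4.3.3), without a replicate block. The Benjamini-Hochberg adjustment ran over 13256 genes, and a call needed an adjusted p under 0.05 together with a log2 fold change beyond 0.58 in either direction. The SE came from the F statistic, and the biological coefficient of variation was 4.28%. The procedure was tested on simulated data. Alternatives used DESeq2 1.42.0 and limma 3.58.1, other scalings, filters, thresholds and left-out libraries. Genes were named when called for thrombin against control or PD03 against thrombin, without overlap and at 1 CPM or more in the higher mean, when among the 2 highest FPKM of a class, or when fixed for roles in bone, mechanosensing or membrane potential. The members and lists were chosen with earlier results of these data known. Of the fixed genes, Kcnma1, Ano1 and Ano5 were under the count limit. Protein sequences were not used here. A few members enter the counts without being reported by name.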

Additional observations from a re-analysis of the deposited data

How the results depend on the processing

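The 49 called values of channel genes kept their direction under all alternatives run. Under each alternative with the same fold threshold in which the gene was tested, 13 stayed called. Kcnn4 and Kcnv1 for PD03 against thrombin are among them, although their means (48.6 and 38 counts) left them untested at a limit of 50 counts. With FPKM + 1 left aside, 33 stayed called wherever tested. Counts of calls are given as higher and lower. For the alternatives the share of all genes called is not given here. Their counts therefore do not show whether channel genes were called more often than other genes. The reported counts were 3 and 7 (thrombin against control), 14 and 7 (PD03 against thrombin) and 9 and 9 (PD03 against control). With genes that averaged 50 counts or more, 42 of the channel genes were tested, and the counts were 1 and 5, 8 and 2, and 7 and 5, in the same order. Without a fold threshold the counts were 9 and 11, 25 and 11, and 16 and 13. With an absolute log2 fold change above 1 they were 1 and 5, 8 and 6, and 5 and 5. On the log2(FPKM + 1) scale, which compresses changes of genes at low FPKM, they were 0 and 1, 6 and 2, and 4 and 0. DESeq2 gave 3 and 7, 12 and 7, and 8 and 8. With each of the 9 libraries left out in turn, the counts ranged from 3 to 3 higher and 6 to 8 lower for thrombin against control, 10 to 16 and 7 to 9 for PD03 against thrombin, and 8 to 10 and 7 to 9 for PD03 against control. The replicate block gave 3 and 7, 13 and 7, and 9 and 9, ending the call of Kcnt2 for PD03 against thrombin (adjusted p = 0.0569) and of no other channel gene. The numbers gave no sign of pairing, since deviations of libraries with the same number correlated at r -0.0456 to 0.0523 and those with different numbers at -0.0563 to 0.0554 across genes. Genes such as Kcna3, Kcnt2 and Trpm1 had few counts at this depth, and their fold changes are the least precise.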
